A study of Mus musculus with 9 samples.

Results

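Genes that mark leukocytes, platelets and red blood cells were followed through endothelial cells sorted from mouse lung, a preparation from which cells carrying the leukocyte protein CD45 had been gated out. The set, chosen with earlier results of these data known, was given as 37 symbols of genes known from blood cells. All 37 were found among the 56748 genes of the count table. Low counts kept 9 of them out of the tests, so 28 of the 19486 genes tested belonged to the set. RNA came from C57BL/6 mice 6 weeks old, in 3 libraries each of WT, DNMAML and Notch1f/f, all sorted as DAPI-/CD45-/CD31+. The name DNMAML commonly stands for dominant-negative Mastermind-like, an inhibitor of transcription driven by Notch receptors, and f/f after Notch1 commonly marks a floxed allele. The sources used here do not give the recombinase, its driver, or whether libraries of a genotype were separate mice. Each genotype held libraries with 3961 or more counts of Y-linked genes and libraries with 14 or fewer. The 3 libraries of a genotype therefore did not all come from 1 animal. Tests weigh a difference only against the spread among these libraries.

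CD31, the protein used to select endothelial cells, is also carried by platelets and by many leukocytes, while platelets and mature red cells lack a nucleus and hold RNA left from their precursors. Leukocyte classes are told apart by genes tied to their work: Ptprc encodes CD45 itself, Spi1 the transcription factor PU.1 of myeloid cells, S100a8 and S100a9 the calprotectin of neutrophils and monocytes, Cd79a and Cd79b the signalling chains of the B cell receptor, and Pf4 and Ppbp the chemokines of platelet granules. PU.1 recognises DNA around the letters GAGGAA, and the GATA factors of red cells and megakaryocytes recognise sites around AGATAA.

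Levels are given as CPM, the count of a gene relative to its library total after TMM scaling, and differences as log2 values with a standard error (SE) from the test. Values of a genotype follow the order of its replicates 1 to 3. None of the 28 tested genes passed an adjusted p of 0.05 in any of the 3 comparisons in the edgeR quasi-likelihood fit to all 9 libraries. For DNMAML against WT this stood against 0.00513% of all tested genes called higher. Within the set, DNMAML 2 held the highest level of 20 of the 37 genes and DNMAML 1 of 12. The other 5 peaked in Notch1f/f 2 (2 genes), Notch1f/f 3 (2 genes) and WT 3 (1 gene, Lyz2). DNMAML 3 was the lowest DNMAML library for 30 of the 37 genes. Shares over all genes were not counted for the highest or the lowest library, so these counts only describe the set. In these bulk samples, fewer cells of a type and less RNA per cell cannot be told apart.

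Upstream sequence is shown for 1 member each of 5 roles whose libraries differed from each other below, as the 250 bases before the start, read 5′ to 3′ along the gene from the RefSeq promoter table on GRCm38.p6. Capitals mark GAGGAA or its reverse complement TTCCTC in the first 4 windows and AGATAA in the last. The windows are Ptprc at chr1:138175306-138175555 (minus strand), Ctss at chr3:95526536-95526785 (plus), S100a8 at chr3:90668821-90669070 (plus), Pf4 at chr5:90772185-90772434 (plus) and Hbb-bs at chr7:103827929-103828178 (minus).
Ptprc: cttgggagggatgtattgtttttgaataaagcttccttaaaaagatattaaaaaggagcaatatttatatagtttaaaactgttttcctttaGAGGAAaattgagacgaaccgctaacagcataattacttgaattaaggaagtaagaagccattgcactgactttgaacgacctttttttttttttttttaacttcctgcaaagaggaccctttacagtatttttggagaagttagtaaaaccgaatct
Ctss: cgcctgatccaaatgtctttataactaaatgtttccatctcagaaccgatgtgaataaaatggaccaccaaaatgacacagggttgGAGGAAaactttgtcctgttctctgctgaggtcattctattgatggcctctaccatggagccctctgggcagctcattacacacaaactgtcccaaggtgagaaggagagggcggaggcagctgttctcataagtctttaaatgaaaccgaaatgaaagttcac
S100a8: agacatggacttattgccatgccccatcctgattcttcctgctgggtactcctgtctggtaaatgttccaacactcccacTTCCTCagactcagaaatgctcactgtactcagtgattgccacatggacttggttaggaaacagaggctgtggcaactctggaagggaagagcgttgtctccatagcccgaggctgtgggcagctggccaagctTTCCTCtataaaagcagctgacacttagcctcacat
Pf4: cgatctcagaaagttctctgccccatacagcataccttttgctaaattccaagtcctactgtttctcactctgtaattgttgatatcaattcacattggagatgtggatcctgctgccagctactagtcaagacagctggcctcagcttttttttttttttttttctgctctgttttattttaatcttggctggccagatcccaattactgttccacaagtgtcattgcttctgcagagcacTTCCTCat
Hbb-bs: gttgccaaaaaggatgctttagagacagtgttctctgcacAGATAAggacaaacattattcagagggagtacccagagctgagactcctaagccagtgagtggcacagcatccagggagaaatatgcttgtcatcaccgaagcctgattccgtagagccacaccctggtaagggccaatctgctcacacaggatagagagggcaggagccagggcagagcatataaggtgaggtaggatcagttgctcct
A window was found for 28 of the 37 members, 31 windows in all. Each of the 5 windows shown holds a match, so they do not stand for the set. On either strand, GAGGAA was present in 13 of the 31 (41.9%) and in 23.3% of all 32851 windows of the table. These 13 belonged to Marco, Ptprc, Mrc1, S100a8, Ctss, Laptm5, C1qb, C1qc, Pf4, Cd79a, Itgam, Cd3e and Cd68. Platelet, B cell and T cell genes (Pf4, Cd79a and Cd3e) are thus among them. AGATAA (reverse complement TTATCT) was present in 7 of the 31 (22.6%) and in 9.99% of all windows. These 7 belonged to Ptprc (a window not shown), S100a9, Hbb-bs, Itgax, Cd3g, Ccr2 and Cybb. Only Hbb-bs among them is a red cell or platelet gene. These matches describe letters and not binding.

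Ptprc (ENSMUSG00000026395, chromosome 1, 137990599 to 138103446, GRCm39), the gene of the protein removed by the sort, was detected in every library. It stood at 4.99, 2.94 and 0.407 CPM in WT 1 to 3, at 27.9, 26.6 and 1.39 CPM in DNMAML 1 to 3, and at 14.4, 4.95 and 1.58 CPM in Notch1f/f 1 to 3. DNMAML 1 and DNMAML 2 lay above all other libraries, while DNMAML 3 lay within the WT range, so the groups overlapped. The mean was 2.78 ± 2.29 CPM for WT, 18.6 ± 15.0 for DNMAML and 6.99 ± 6.66 in Notch1f/f (SD, n = 3). For DNMAML against WT the log2 difference of Ptprc was 2.74 (SE 1.34), with a Benjamini-Hochberg adjusted p = 0.916 in the edgeR quasi-likelihood test. The Notch1f/f value was 1.33 (SE 1.29), with an adjusted p = 0.763 in the same edgeR test. Same-numbered WT and DNMAML libraries deviated together over all genes, a pairing inferred from these data and not from the labels. Some Notch1f/f libraries deviated as strongly with differently numbered ones. With that number as a block in the 6 libraries compared, Ptprc passed (log2 change 2.62, SE 0.29, edgeR adjusted p = 0.00271). With the block in the fit to all 9 libraries its edgeR adjusted p was 0.107.

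The other 5 genes shared by most leukocytes split into 4 whose highest library was DNMAML 1 or DNMAML 2 and 1, Lcp1, that was high everywhere. Laptm5, a lysosomal membrane protein of blood cells, stood at 35.7, 7.17 and 6.93 CPM for WT, 76.1, 25.9 and 5.59 for DNMAML and 26.7, 9.91 and 18.8 for Notch1f/f. It was highest in DNMAML 1 and next highest in WT 1, and the groups overlapped. Its log2 difference from WT was 1.11 (SE 1.05) in DNMAML and 0.15 (SE 1.04) in Notch1f/f. Coro1a, an actin-binding protein of leukocytes, stood at 1.77, 2.56 and 0.611 CPM for WT, 11.0, 9.37 and 0.876 for DNMAML and 4.29, 1.86 and 2.82 for Notch1f/f. DNMAML 1 and 2 were again the highest libraries and DNMAML 3 was among the lowest. Its log2 difference for DNMAML was 2.11 (SE 0.82), with a Benjamini-Hochberg adjusted p = 0.695 in the edgeR test. Coro1a exons overlap those of Bola2 on the other strand, and strand was not used in the recorded counting command, so its counts are uncertain. Cd52 and the GTPase Rac2 ranged from 0.102 to 6.38 and from 0.204 to 6.08 CPM, each highest in DNMAML 2. Exons of Cd52 overlap those of Crybg2 on the other strand.

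Lcp1 (chromosome 14, 75368541 to 75468282, GRCm39), the actin-bundling L-plastin, was abundant in every library. It stood at 106, 86.7 and 119 CPM for WT, 144, 205 and 84.9 for DNMAML and 196, 264 and 283 for Notch1f/f. All 3 Notch1f/f libraries lay above all 3 WT libraries, while DNMAML overlapped both groups. Notch1f/f 3, with 283 CPM of Lcp1, had 1.58 CPM of Ptprc. For Notch1f/f against WT the log2 difference of Lcp1 was 1.25 (SE 0.29), short of the threshold in the edgeR test (Benjamini-Hochberg adjusted p = 0.0784). It passed in a fit to the 6 libraries compared alone (edgeR adjusted p = 0.0172), in DESeq2 (0.000498), and in the edgeR fit without DNMAML 2 (0.0179) or without DNMAML 3 (0.0197). The value for DNMAML was 0.48 (SE 0.28). Antisense models Gm15628 and Gm15629 overlap exons of Lcp1, with at most 20 counts of their own. The 5 pan-leukocyte genes without Lcp1 summed to 45.2, 14.7 and 8.25 CPM for WT, 122, 74.4 and 9.78 for DNMAML and 49.5, 18.9 and 24.4 for Notch1f/f.

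**Figure D1:**
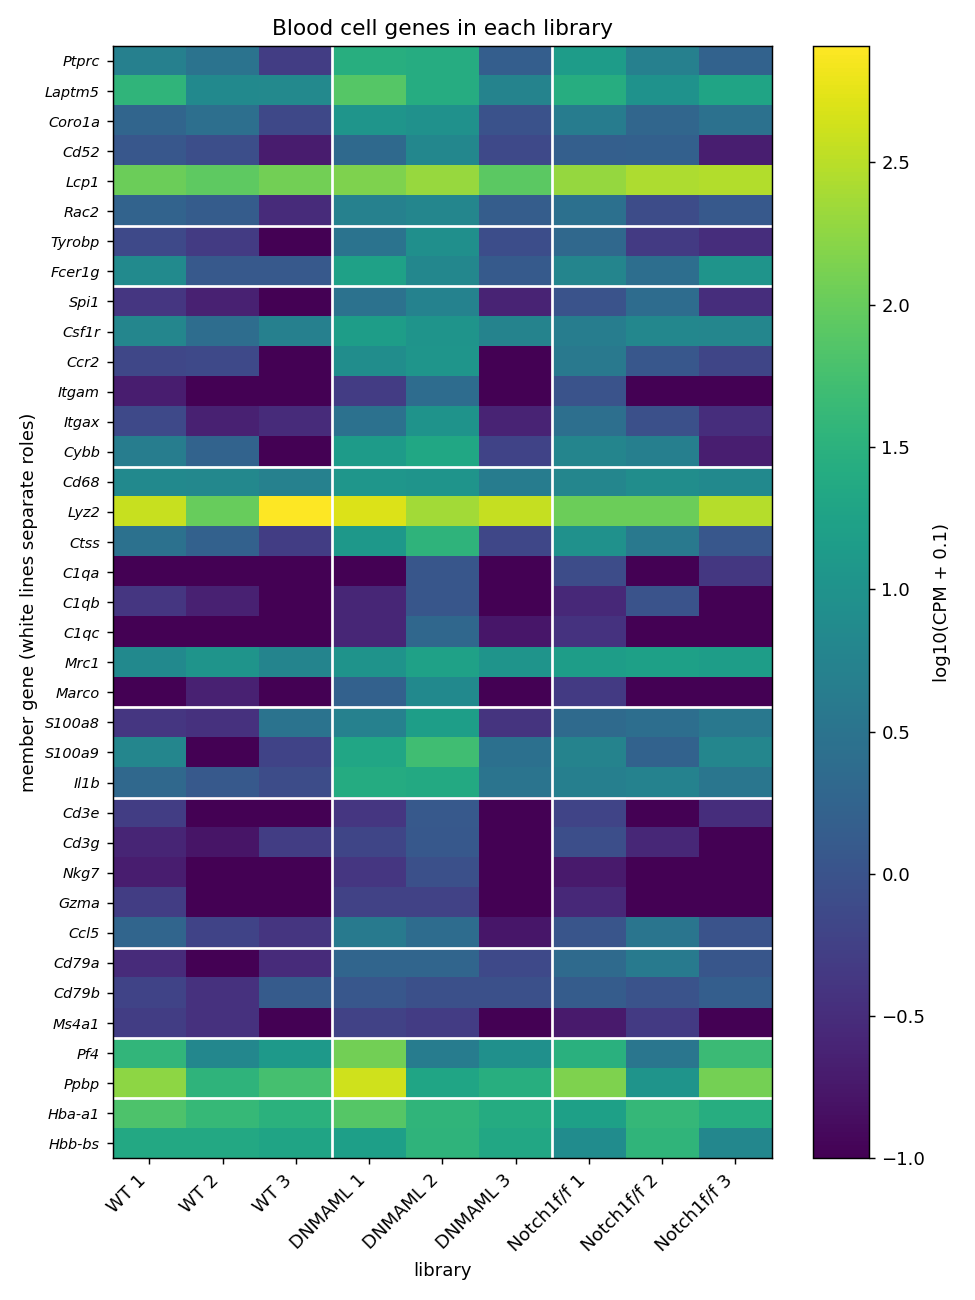
Level of each of the 37 genes in each of the 9 libraries, grouped by role, with colour for log10 of CPM plus 0.1 and white lines between roles and between genotypes. DNMAML 1 and DNMAML 2 hold the highest level of 32 of the genes (no share over all genes was counted), and DNMAML 3 lies close to the WT libraries.

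Tyrobp and Fcer1g encode the adaptor chains through which activating receptors of myeloid and NK cells signal. Tyrobp stood at 0.623, 0.384 and 0 CPM for WT, 2.96, 8.78 and 0.730 for DNMAML and 1.97, 0.354 and 0.225 for Notch1f/f. Every DNMAML library was above every WT library, though DNMAML 3 only narrowly. The log2 difference was 3.61 (SE 1.29), with a Benjamini-Hochberg adjusted p = 0.624 in the edgeR test, and Tyrobp passed with the replicate block in 6 libraries (3.60, SE 0.73, edgeR adjusted p = 0.0391) but not with the block in all 9 (edgeR adjusted p = 0.301). For Notch1f/f the value was 1.34 (SE 1.23), and it turned to -0.19 without Notch1f/f 1. Fcer1g stood at 7.27, 1.15 and 1.12 CPM for WT, 17.5, 6.28 and 1.17 for DNMAML and 5.99, 2.48 and 10.5 for Notch1f/f. Its groups overlapped, with log2 differences from WT of 1.38 (SE 1.05) for DNMAML and 0.98 (SE 1.05) for Notch1f/f.

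Among the myeloid regulators and receptors, Spi1 had the largest log2 difference of the tested members between DNMAML and WT. Spi1 stood at 0.312, 0.128 and 0 CPM for WT, 2.88, 5.38 and 0.146 for DNMAML and 0.893, 2.30 and 0.225 for Notch1f/f. DNMAML 3 lay inside the WT range, and so the groups overlapped. The log2 difference was 4.20 (SE 1.41) for DNMAML and 2.92 (SE 1.37) for Notch1f/f, with Benjamini-Hochberg adjusted p = 0.553 and 0.384 in the edgeR test. Csf1r, the receptor for the macrophage growth factor, was less spread: 6.02, 2.43 and 4.89 CPM for WT, 14.7, 10.6 and 5.55 for DNMAML and 4.42, 6.28 and 6.19 for Notch1f/f. Its log2 difference was 1.20 (SE 0.43) for DNMAML, with an edgeR adjusted p = 0.624, and its exons overlap those of Hmgxb3 on the other strand. Cybb, the membrane subunit of the phagocyte oxidase, stood at 4.36, 1.66 and 0 CPM for WT, 13.7, 21.1 and 0.511 for DNMAML and 5.99, 4.78 and 0.113 for Notch1f/f. Replicate 3 was the lowest library of each genotype for Cybb. Its log2 difference of 2.55 (SE 1.78) for DNMAML did not pass, and with the replicate block in 6 libraries it was 2.73 (SE 0.52, edgeR adjusted p = 0.0451). Blocked over all 9 libraries, Cybb did not pass (edgeR adjusted p = 0.150).

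Ccr2, the receptor that brings monocytes into tissue, is named because it passed in that blocked fit, a choice made after its values were seen. It stood at 0.571, 0.640 and 0 CPM for WT, 8.01, 10.7 and 0 for DNMAML and 3.71, 1.06 and 0.563 for Notch1f/f. Replicate 3 of WT and of DNMAML had no count, where 3 counts would be 0.153 and 0.110 CPM, and the groups overlapped. The log2 difference was 3.95 (SE 1.76) for DNMAML with an edgeR adjusted p = 0.845, and 3.90 (SE 0.56) with an adjusted p = 0.0108 in the blocked edgeR fit to 6 libraries. Blocked over all 9 libraries, it was 3.60 (SE 1.28) and did not pass (edgeR adjusted p = 0.664). The integrin genes Itgam and Itgax reached 2.34 and 10.2 CPM, both in DNMAML 2, and Itgam was too low to be tested. Exons of Itgam overlap those of the model Gm49368 on the same strand, so its low counts are uncertain.

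The macrophage products held both the most abundant member and several of the scarcest. Per kilobase of gene length, Lyz2, the lysozyme of myeloid cells and of alveolar type II epithelium, was the highest of the 37 genes at a mean of 246 CPM per kilobase, followed by Ppbp at 104. Lyz2 stood at 384, 99.7 and 811 CPM for WT, 512, 233 and 363 for DNMAML and 107, 108 and 297 for Notch1f/f. It was the 1 member whose highest library was WT 3, and its groups overlapped. Its log2 difference was -0.23 (SE 0.79) for DNMAML and -1.34 (SE 0.80) for Notch1f/f. The summed level of 6 epithelial genes, Sftpc among them, was 1188, 314 and 2706 CPM for WT, 1288, 174 and 1354 for DNMAML and 119, 434 and 941 for Notch1f/f, highest in WT 3 as Lyz2 was. The part of epithelial RNA in the Lyz2 values was not tested, and 15.4% of the 50-base stretches of Lyz2 also occur in Lyz1.

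Ctss, the lysosomal protease cathepsin S of antigen-presenting cells, stood at 2.80, 1.54 and 0.407 CPM for WT, 12.1, 34.4 and 0.584 for DNMAML and 9.38, 3.67 and 1.07 for Notch1f/f. Replicate 3 was the lowest library of each genotype. Its log2 difference was 3.30 (SE 1.42) for DNMAML, with a Benjamini-Hochberg adjusted p = 0.844 in the edgeR test. Cd68, a lysosomal glycoprotein of macrophages, was level by comparison, at 6.96, 6.66 and 5.09 CPM for WT, 11.3, 10.3 and 4.34 for DNMAML and 6.17, 8.14 and 7.10 for Notch1f/f. Its log2 differences from WT were 0.47 (SE 0.37) and 0.19 (SE 0.37). Mrc1, the mannose receptor, named because DESeq2 called it, stood at 6.96, 10.5 and 5.81 CPM for WT, 10.1, 16.9 and 10.4 for DNMAML and 15.1, 16.7 and 15.0 for Notch1f/f. Its Notch1f/f libraries all lay above WT, with a log2 difference of 1.01 (SE 0.29), an adjusted p = 0.130 in the edgeR test and 0.0296 in DESeq2. The 4 untested products were scarce: Marco, a scavenger receptor of alveolar macrophages, reached 6.98 CPM in DNMAML 2, while C1qa, C1qb and C1qc reached at most 1.89 CPM, also in DNMAML 2. C1qa and C1qc had no count in any WT library.

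S100a8 stood at 0.312, 0.256 and 2.95 CPM for WT, 5.05, 15.6 and 0.292 for DNMAML and 2.14, 2.48 and 3.60 for Notch1f/f. DNMAML 3 was among the lowest of the 9 libraries while DNMAML 2 was the highest. S100a9 stood at 6.23, 0 and 0.509 CPM for WT, 20.8, 50.4 and 2.63 for DNMAML and 5.54, 1.59 and 6.08 for Notch1f/f. The groups of both genes overlapped. The log2 differences for DNMAML were 2.55 (SE 1.27) for S100a8 and 3.43 (SE 1.62) for S100a9, with edgeR adjusted p = 0.909 and 0.906.

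Il1b (chromosome 2, 129206490 to 129213059, GRCm39), an inflammatory cytokine of activated myeloid cells, had the lowest adjusted p of the tested members for DNMAML against WT. It stood at 1.97, 1.15 and 0.713 CPM for WT, 25.5, 23.9 and 3.07 for DNMAML and 4.82, 5.40 and 3.27 for Notch1f/f. All 6 DNMAML and Notch1f/f libraries lay above all 3 WT libraries, and DNMAML 3 was again the lowest of its genotype. For DNMAML the log2 difference was 3.76 (SE 0.73), with an adjusted p = 0.169 in the edgeR test. The Notch1f/f value was 1.81 (SE 0.70), with an edgeR adjusted p = 0.278. Between Notch1f/f and DNMAML it was -1.96 (SE 0.67), with an edgeR adjusted p = 0.637. Il1b passed for DNMAML with the replicate block in 6 libraries (3.50, SE 0.41, edgeR adjusted p = 0.00500), in DESeq2 (adjusted p = 7.67e-06) and in edgeR without DNMAML 3 (adjusted p = 0.0203). Blocked over all 9 libraries, it did not pass (edgeR adjusted p = 0.0932). The antisense gene Il1bos overlaps its exons.

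The T, NK and B cell members were low, at 4.00 CPM or less in every library. Of the T and NK genes, Cd3e, Nkg7 and Gzma were too low to be tested and Cd3g never exceeded 1.10 CPM. Exons of Cd3e overlap those of Gm48719 on the other strand. Nkg7 and Gzma, genes of cytotoxic granules, had no count in 5 of the 9 libraries (WT 2, WT 3, DNMAML 3, Notch1f/f 2 and Notch1f/f 3), and at most 0.798 and 0.499 CPM, both in DNMAML 2. Ccl5, a chemokine of T and NK cells, was the most abundant of the role per kilobase, at 1.77, 0.512 and 0.306 CPM for WT, 4.00, 2.29 and 0.073 for DNMAML and 0.983, 3.18 and 0.901 for Notch1f/f. Its groups overlapped, with log2 differences from WT of 1.29 (SE 1.11) and 0.97 (SE 1.10).

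The B cell genes differed from each other in pattern. Cd79a (chromosome 7, 24596806 to 24601622, GRCm39) stood at 0.208, 0 and 0.204 CPM for WT, 1.76, 1.79 and 0.621 for DNMAML and 2.14, 3.89 and 1.01 for Notch1f/f. All 6 DNMAML and Notch1f/f libraries lay above all WT libraries. The log2 difference was 3.25 (SE 1.00) for DNMAML and 4.00 (SE 1.02) for Notch1f/f, with edgeR adjusted p = 0.454 and 0.0888, and DESeq2 gave 0.00139 for Notch1f/f. Its partner chain Cd79b stood at 0.519, 0.256 and 1.22 CPM for WT, 1.04, 0.798 and 0.803 for DNMAML and 1.25, 0.884 and 1.35 for Notch1f/f, and its groups overlapped. Its log2 differences were 0.39 (SE 0.82) and 0.79 (SE 0.83). Ms4a1, which encodes CD20, was not tested and lay between 0 and 0.481 CPM.

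Platelet genes varied widely between the libraries of each genotype. Pf4 stood at 37.2, 6.27 and 13.1 CPM for WT, 118, 4.29 and 8.98 for DNMAML and 29.8, 3.27 and 46.9 for Notch1f/f. Ppbp stood at 175, 34.8 and 56.1 CPM for WT, 422, 19.5 and 27.7 for DNMAML and 143, 10.6 and 126 for Notch1f/f. Replicate 2 of each genotype was its lowest library for both genes, DNMAML 1 was the highest of all, and the groups overlapped. The log2 differences for DNMAML were 1.21 (SE 1.5) for Pf4 and 0.82 (SE 1.48) for Ppbp. Without DNMAML 1 both values were negative, with Ppbp at -1.90, so their sign rested on that library. A further 12 platelet and megakaryocyte genes, Itga2b and Itgb3 the most abundant, summed to 672, 175 and 206 CPM for WT, 1534, 121 and 163 for DNMAML and 570, 111 and 533 for Notch1f/f, the same order as Pf4 and Ppbp in WT and DNMAML. DNMAML 2 and DNMAML 3 lay below all 3 WT libraries in this sum, and DNMAML 1 alone lay above them. The fitted log2 difference for DNMAML was positive for 11 of the 11 tested, with 51.1% of all tested genes positive, and 0 passed.

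Globin genes, carried by red cells, overlapped between all 3 genotypes. Hba-a1, an alpha globin, stood at 66.2, 41.4 and 31.6 CPM for WT, 74.3, 35.5 and 24.9 for DNMAML and 16.8, 40.0 and 27.3 for Notch1f/f. Hbb-bs, a beta globin, stood at 22.8, 23.1 and 19.4 CPM for WT, 16.0, 35.0 and 22.2 for DNMAML and 7.95, 35.5 and 6.31 for Notch1f/f. The 2 globins did not share their highest library. The log2 differences were -0.05 (SE 0.48) and 0.16 (SE 0.62) for DNMAML, and -0.73 (SE 0.48) and -0.39 (SE 0.62) for Notch1f/f. Of the 50-base stretches of Hba-a1, 67.5% also occur in Hba-a2, and of those of Hbb-bs 65.8% also occur in Hbb-bt. The recorded counting command held no option for multiple mapping, so reads shared by the copies may be missing from these levels.

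**Figure D2:**
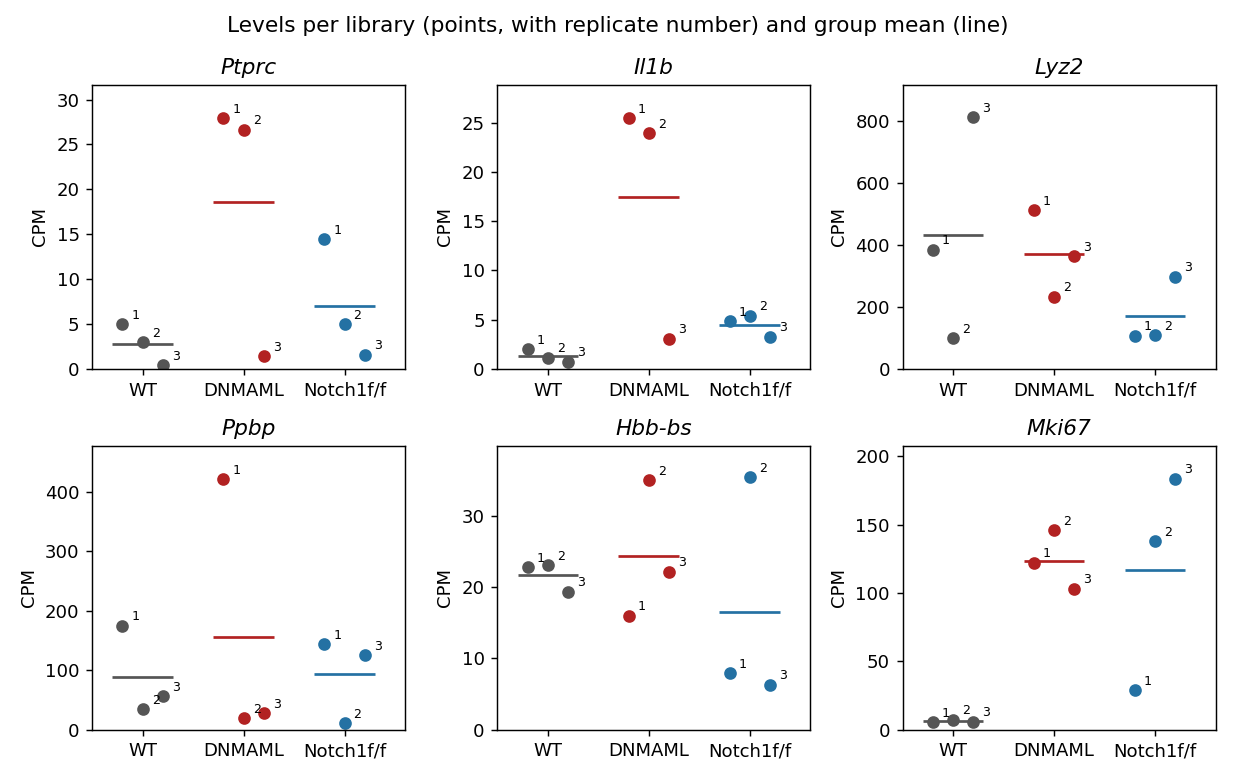
Level in CPM, on a linear axis from 0, of Ptprc, Il1b, Lyz2, Ppbp, Hbb-bs and the proliferation gene Mki67, with a numbered point for each replicate of WT, DNMAML and Notch1f/f and a line for the group mean. Ptprc spans 0.407 to 27.9 CPM with DNMAML 3 far below DNMAML 1 and 2, while Mki67 is high in all 3 DNMAML libraries (103 to 146 CPM).

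DNMAML 1 and DNMAML 2, both high in Ptprc, did not hold the classes in equal measure. Ptprc and Il1b were nearly level between them, with DNMAML 1 at 1.05 and 1.06 times DNMAML 2. Platelet genes were higher in DNMAML 1, by 27.6 times for Pf4 and 21.6 times for Ppbp. Laptm5, Fcer1g and Lyz2 were higher there too, at 2.93, 2.78 and 2.20 times DNMAML 2. Ctss at 0.353 times, S100a8 at 0.323 times and Marco at 0.218 times were instead lower in DNMAML 1. Of 36 members detected in both libraries, 6 had a ratio above 2, 13 a ratio below 0.5 and 17 lay between. The sum of 8 alveolar macrophage genes was 45.3 CPM in DNMAML 1 and 189 in DNMAML 2, against 2.65 to 9.66 in WT. Most of it was 1 gene, Chil3, at 32.6 CPM in DNMAML 1, 166 in DNMAML 2 and 34.0 in Notch1f/f 1. Plet1 and Mcoln3 of this list were higher in DNMAML 1 (4.45 and 0.721 CPM) than in DNMAML 2 (3.44 and 0.598). The sum is thus not read as a difference of the class. The same sum of 8 genes was 2.88 CPM in DNMAML 3, within the WT range. It was 42.7, 23.2 and 7.60 CPM in Notch1f/f, where replicate 1 was close to DNMAML 1. These ratios describe 2 libraries of 1 genotype and carry no test.

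**Figure D3:**
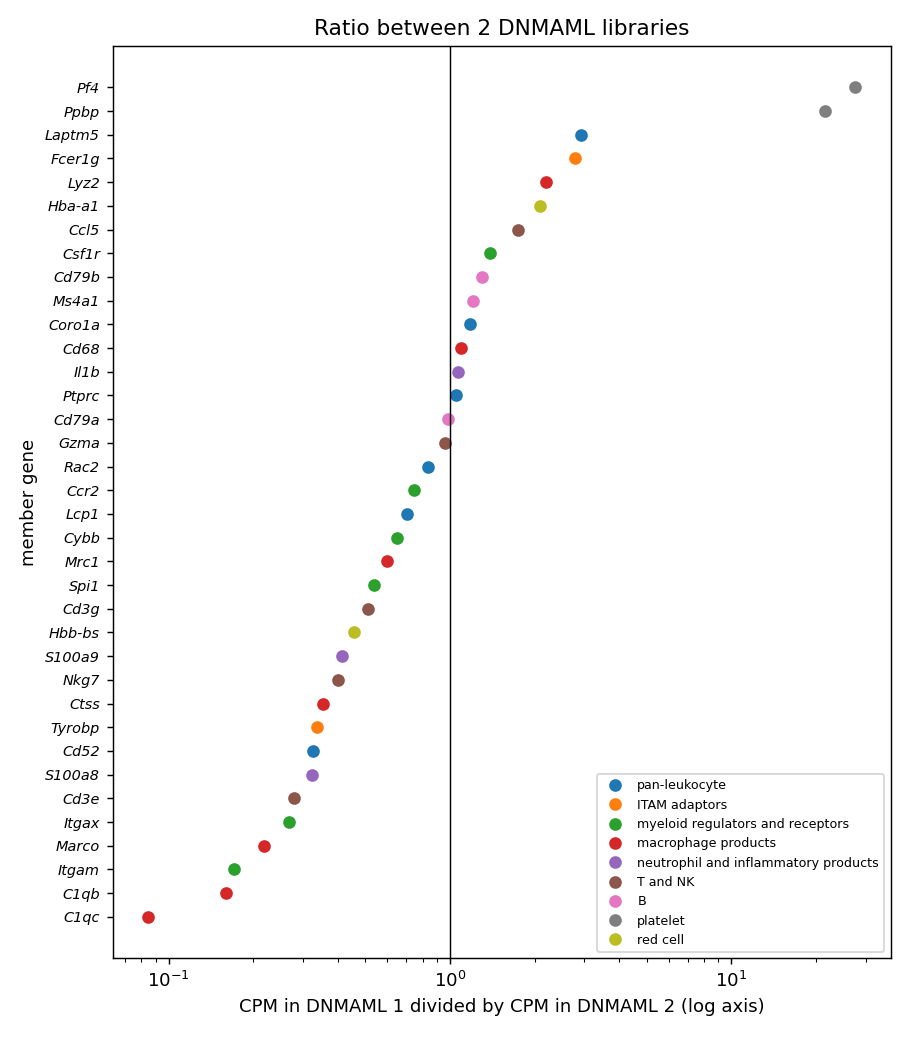
Ratio of the level in DNMAML 1 to that in DNMAML 2 for each member detected in both, on a log axis and coloured by role. Pf4 and Ppbp lie highest at 27.6 and 21.6 and C1qc lowest at 0.0845.

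Across the whole set, mean CPM was higher in DNMAML than in WT for 35 of the 37 members, with a median log2 ratio of means of 1.82 that counts 2 genes absent from WT at their lower bound. Of the tested members, which had to clear a minimum count, 26 of 28 had a higher fitted log2 value in DNMAML and 2 a lower one, with a median of 1.68, where 51.1% of all tested genes were higher and their median was 0.01. At an unadjusted p below 0.05, 9 members were higher and 0 lower, against 3.72% and 2.26% of all tested genes. The members were chosen with earlier results of these data known, so their shares describe the set and are no independent test. Complete separation downward was seen for 0 members and 6.82% of all tested genes. Of all 37 members, 4 had every DNMAML library above every WT library (Tyrobp, C1qc, Il1b and Cd79a), 3 of them among the 28 tested, where 7.57% of all tested genes did so. C1qc did so on 1.89 CPM or less, with 2 counts (0.073 CPM) in DNMAML 3, under the 3 counts that a count of 0 allows. In 24 members DNMAML 1 and DNMAML 2 both lay above every WT library, and for 20 of these DNMAML 3 lay within or below the WT range. DNMAML 1 and DNMAML 2 were picked after their levels were seen, and no share over all genes was counted for this. By same-numbered pairs, 33 of the 37 members were higher in DNMAML 1 than in WT 1, 34 in pair 2 and 16 in pair 3. Shares over all genes were not counted for single pairs. Of the 28 tested, 14 were higher in all 3 pairs, against 19.1% of all tested genes. With the replicate block in the 6 libraries, 5 members (Ptprc, Tyrobp, Ccr2, Cybb and Il1b) of 26 tested were called higher, against 1.17% of all genes. The block in all 9 libraries called 0 members. DESeq2 called 1 (Il1b) against 0.898%, and edgeR without DNMAML 3 called 1 (Il1b) against 0.0193%. Without the filter on low counts edgeR called 15 of 37 higher, against 1.09%. These 15 included Pf4 and Ppbp, whose sign rested on DNMAML 1. The S100a9 log2 value was 3.43 with the filter and 3.44 without it, while its edgeR adjusted p moved from 0.906 to 3.03e-17.

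In Notch1f/f, mean CPM was above WT for 31 of the 37 members. Of those tested, 25 of 28 members had a higher log2 value and 3 a lower one, with a median of 0.91, where 51.7% of all tested genes were higher. None was called, against 0.513% of all genes called higher and 0.323% lower, and the lowest edgeR adjusted p was 0.0784, for Lcp1. At an unadjusted p below 0.05, 4 members were higher and 0 lower, against 6.8% and 6.64% of all tested genes. All Notch1f/f libraries lay above all WT libraries for 4 members (Lcp1, Mrc1, Il1b and Cd79a), against 8.47% of tested genes, and 0 were separated downward (9.35%). DESeq2 called 3 higher (Lcp1, Mrc1 and Cd79a) against 2.82%. Lcp1 alone was called in the 6 libraries compared (0.502% of all genes), without DNMAML 2 (0.787%) and without DNMAML 3 (0.391%). The replicate block in those 6 libraries also called Lcp1 alone (edgeR adjusted p = 0.0325), where 50 of 18124 genes were called higher. Notch1f/f and WT libraries were not taken as paired, so that block had no such basis. With no filter edgeR called 7 higher against 2% and 2 lower against 2.26%. In the same comparison, the 6 fibroblast and mural genes all had a lower value in Notch1f/f (median -1.47), and Pdgfrb and Cspg4 fell (log2 changes -2.33 and -2.14, edgeR adjusted p = 0.0192 and 0.0165). All 6 epithelial genes (median -0.89) and all 7 immediate early genes (median -0.53) had a lower value and 0 of them passed. Their part in the members' values was not tested. Between Notch1f/f and DNMAML, 24 of 28 tested members had a lower value and 4 a higher one, with a median of -1.04 and 50.5% of all tested genes higher. Again 0 were called, against 0.0103% of all genes in each direction, 1 member each way was under 0.05 unadjusted (2.41% higher and 3.96% lower of all genes), and 0 had groups that did not overlap (4.41% and 5.32%). With no filter 1 member was called higher (0.529%) and 10 lower (1.56%). These comparisons share libraries, so their values are not independent of each other.

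**Figure D4:**
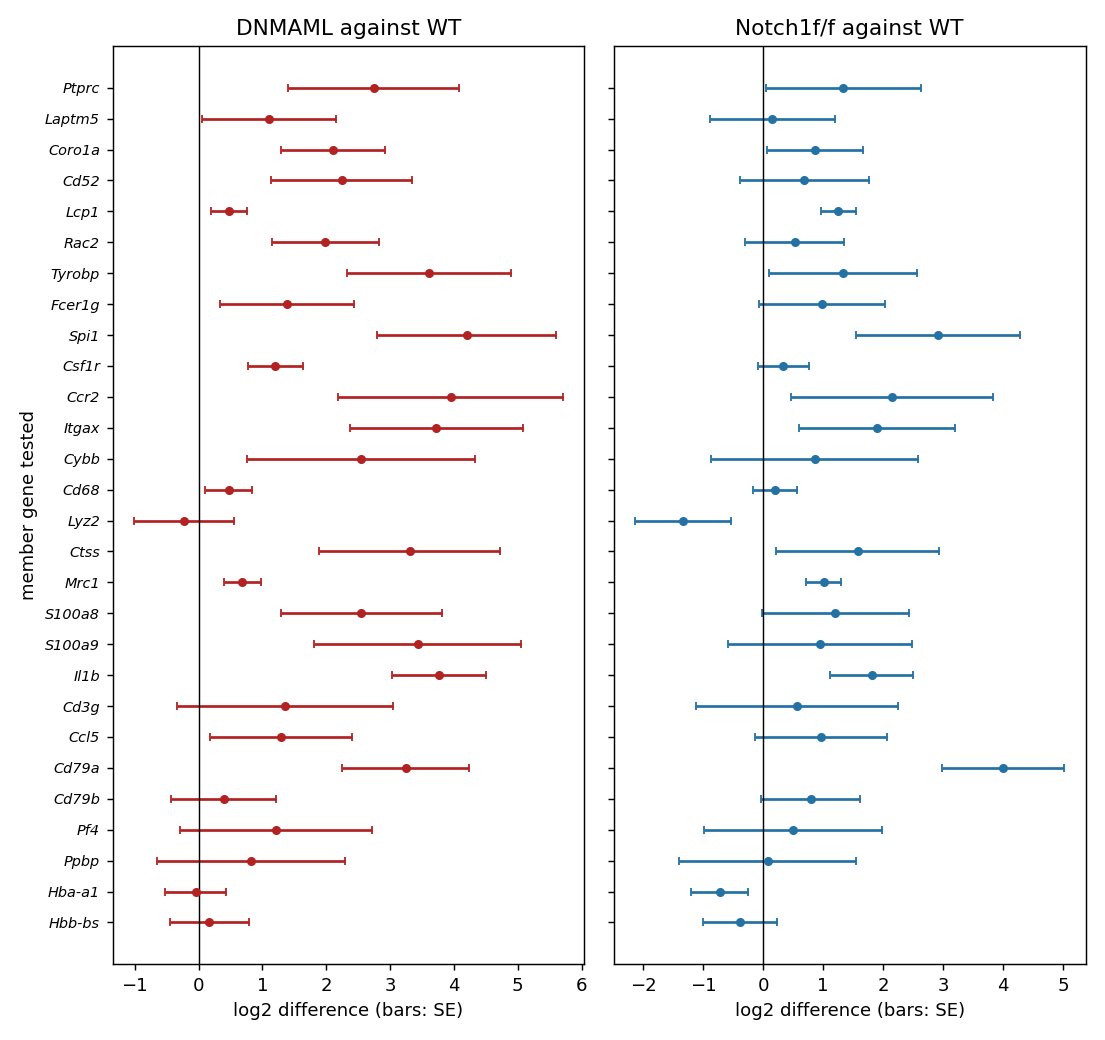
Log2 difference from WT with its SE for each tested member, for DNMAML and for Notch1f/f, on the scale of the edgeR fit. For DNMAML, 26 of 28 values lie above 0, and Spi1 is highest at 4.20.

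Lists of further blood cell genes, drawn up with results of these data in view, were read beside the members. For DNMAML, all 14 other leukocyte genes had a positive log2 difference (median 1.63), 9 of 10 tested neutrophil genes did (median 3.65) and 0 passed in either list. In the monocyte and macrophage list 9 of 10 tested genes had a positive value, in the T and NK list 8 of 8 and in the B list 7 of 9, and 0 passed. Not all lists ran this way: 2 of 4 tested dendritic genes and 1 of 3 tested further red cell genes had a positive value for DNMAML. Clec9a, of the dendritic list, was abundant in every library, at 77.3 to 177 CPM. Zbtb46, of the same list, stood at 141 to 159 CPM in WT, where Ptprc was at 0.407 to 4.99 CPM. It was lower in every DNMAML library (at most 127) and every Notch1f/f library (111 to 134). Its log2 differences of -0.37 (SE 0.13) and -0.26 (SE 0.13) did not pass. Which cells held the RNA of these genes was not tested, so the list is not read as a measure of dendritic cells. The 14 cell cycle genes summed to 24.6, 25.1 and 22.7 CPM for WT, 356, 392 and 305 for DNMAML and 82.9, 397 and 492 for Notch1f/f. All DNMAML and Notch1f/f libraries lay above WT in this sum, including DNMAML 3 and Notch1f/f 3, where Ptprc stood at 1.39 and 1.58 CPM. The summed level of 10 endothelial genes was between 15434 and 18888 CPM in every library. Library totals ran from 15522100 to 27842496 counts, and a count of 0 allows up to 3 counts, or 0.110 to 0.192 CPM, for counting error only. Most low counts were even numbers, so a fragment may have entered as more than 1 count, and these limits and the folds set against them then assume too low a floor. A p that misses the threshold does not show that values did not differ.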

How the data were processed

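Whole-number read counts per gene were deposited by the authors as 1 table of 9 libraries. Per the file headers, counting used featureCounts 2.0.1 with Ensembl release 107 on GRCm39, and the command holds no option for strand, read pairs or multiple mapping. The submitters' processing notes name STAR 2.7 and the build mm10, which differs from the header. Between 76.6% and 89.0% of counts below 200 were even numbers. Symbols were matched through an annotation on GRCm38, which named 52073 of 56748 identifiers. All columns were used. The members and lists were chosen with earlier results of these data known.

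Genes were filtered with filterByExpr, leaving 19486, and fitted by edgeR 4.0.16 (R 4.3.3) with TMM and the quasi-likelihood test on all 9 libraries, with Benjamini-Hochberg adjustment at 0.05. The SE is the absolute log2 difference over the root of F. DESeq2 1.42.0 and limma 3.58.1 were alternatives, with other filters, scalings, replicates left out and a replicate block. The fit was tested on simulated data. The text gives every library for Ptprc and for up to 3 members per role with the highest CPM per kilobase. A group with 0 counts in every library was set to a floor of 3 counts per library.

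Same-numbered WT and DNMAML libraries had correlated deviations (r = 0.238, 0.344 and 0.179), so the number was taken to pair them. Differently numbered libraries of these genotypes gave -0.270 to 0.0774. Deviations were taken from the mean of each genotype, so high same-numbered values push the differently numbered ones down. This contrast is therefore no separate support for pairs. The values of WT 2 with Notch1f/f 1 (0.352) and DNMAML 2 with Notch1f/f 1 (0.306) were as high, so r alone does not establish pairs. Same-numbered Notch1f/f libraries gave -0.130 to 0.191 with WT and were not taken as paired. The Y-linked counts (0 to 14 in 5 libraries, 3961 to 6884 in 4) put libraries of different sex in each WT and DNMAML pair, and no term for sex was fitted.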

Additional observations from a re-analysis of the deposited data

How the results depend on the processing

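For DNMAML against WT, members called higher numbered 0 in the edgeR quasi-likelihood fit, 15 without a filter, 1 with DESeq2 and 5 with the replicate block in the 6 libraries compared. Leaving out each replicate in turn gave 0 to 1. For Notch1f/f against WT the counts higher were 7 without a filter, 3 with DESeq2, 1 in the 6 libraries compared and 1 with the replicate block there, 0 to 1 with a replicate left out, and 2 were lower without a filter. For Notch1f/f against DNMAML, 1 was higher and 10 lower without a filter. The replicate block in all 9 libraries called 0.

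Among the 25 members named by the rule, values turned sign as follows. With limma-voom, DNMAML against WT gave Lyz2 0.15 and Ppbp -0.19, Notch1f/f against WT gave Ppbp -0.34, and Notch1f/f against DNMAML gave Fcer1g 0.11, S100a8 0.11 and Ccl5 0.84. With the replicate block in 9 libraries, the values were Lyz2 0.15 and Ppbp -0.0244 for DNMAML against WT, Ppbp -0.11 for Notch1f/f against WT, and Fcer1g 0.0857, Ccl5 0.42 and Pf4 0.00199 for Notch1f/f against DNMAML. With the replicate block in 6 libraries they were Lyz2 0.17, Ppbp -0.18, Ppbp -0.25 and Ccl5 0.40 in the same order of comparisons. Of the other members tested, limma-voom gave Ccr2 0.67 for Notch1f/f against DNMAML and Cd3g -0.0346 and -0.19 for DNMAML and Notch1f/f against WT, and the 9-library block gave Cd3g -0.61 for Notch1f/f against WT. Over all settings the values of Rac2, C1qa, C1qb, Marco and Cd3g also lay on both sides of 0 in at least 1 comparison. The causes were not tested.

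With replicates left out, DNMAML against WT ranged from -0.0808 to 2.35 for Laptm5, -0.69 to 0.62 for Lyz2, -1.50 to 2.17 for Pf4, -1.90 to 1.78 for Ppbp, -0.62 to 0.30 for Hba-a1 and -0.18 to 0.40 for Hbb-bs. Notch1f/f against WT ranged from -0.22 to 1.40 for Laptm5, -0.19 to 2.20 for Tyrobp, -0.19 to 1.46 for Pf4 and -0.38 to 1.04 for Ppbp. Notch1f/f against DNMAML ranged from -1.46 to 0.23 for Laptm5, -0.98 to 0.76 for Fcer1g, -1.91 to 0.0256 for S100a8, -1.16 to 0.53 for Ccl5, -1.41 to 2.00 for Pf4 and -1.28 to 1.98 for Ppbp.

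Sums by role without their most abundant member, in CPM, were 22.7 (WT), 68.8 (DNMAML) and 31.0 (Notch1f/f) for pan-leukocyte genes, 15.8, 41.1 and 28.4 for macrophage products and 21.8, 24.4 and 16.6 for red cell genes. They were 0.848 for the adaptors, 7.24 for neutrophil products, 0.655 for T and NK genes and 26.7 for platelet genes in Notch1f/f, 2.91 for myeloid regulators in WT, and 1.17 and 1.31 for B genes in DNMAML and Notch1f/f.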
